A study of Mus musculus with 9 samples.

Results

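The 6 genes described here are P2rx7 and P2rx4, which sense ATP outside the cell, Entpd1 (CD39) and Nt5e (CD73), which turn that ATP into adenosine, Adora2a, which senses adenosine, and Izumo1r (folate receptor 4), a surface protein that marks regulatory and anergic CD4+ T cells. They were taken from the gene table by symbol, 6 of 39253 genes, and all 6 were among the 22197 genes that passed the filter on low counts. The list was selected on function and on the CPM (counts per 1000000) of knockout against wildtype samples within each batch, so knockout and wildtype values are given for them as a description, with no test. RNA was sequenced from CD4+ T cells of mice on day 9 of experimental autoimmune encephalomyelitis (EAE), an induced inflammatory disease of the central nervous system. Batch 1 held 2 wildtype samples and 3 samples labelled as knockout of estrogen receptor alpha (ERα KO). Batch 2 held 2 wildtype and 2 ERα KO samples. All 9 samples came from mice with EAE, so no healthy control was part of the comparison. The labels give no age, sex, tissue or strain, do not say which cells carry the deletion although the series title speaks of dendritic cells, and do not say whether samples are single animals or pools, so the spread between samples may be technical in part.

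ATP is scarce outside healthy cells and is released by damaged, activated or dying ones. P2RX7 and P2RX4 are ion channels of the P2X family that open when ATP binds. P2RX7 needs much more ATP than P2RX4, and on mouse T cells its opening leads to shedding of surface proteins and, when prolonged, to death. CD39 removes phosphates from ATP to give AMP, and CD73 converts AMP to adenosine. Adenosine acts on T cells mainly through the receptor encoded by Adora2a, which raises cAMP and damps T cell receptor signalling. Regulatory T cells are known for carrying CD39, CD73 and folate receptor 4 at the surface, and anergic T cells for CD73 and folate receptor 4. Folate receptor 4 does not bind folate well and is better known as Juno, the egg protein that sperm recognise.

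P2rx7 and P2rx4 are neighbours on chromosome 5 and lie in the same orientation, with 15181 bases between them in RefSeq's GRCm38.p6 annotation. P2rx7 spans chr5:122643927-122692336 and P2rx4 chr5:122707518-122729739. Izumo1r (chr9:14885814-14903951) and Nt5e (chr9:88327609-88372089) share chromosome 9 but lie far apart. Adora2a is at chr10:75316877-75334792 and Entpd1 at chr19:40612366-40741602. In the GENCODE M21 annotation no gene on the opposite strand overlaps any of the 6, and the pseudogenes Gm16027 and Gm8783 lie inside Entpd1 on its own strand.

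Promoter sequences are shown for the 4 genes whose knockout samples lay above the wildtype samples in CPM in both batches, as described further on. RefSeq's promoter table (GRCm38.p6) matched 5 of the 6 genes. It had no entry for Adora2a, which was therefore not searched for motifs. Each sequence runs 5′ to 3′ on the gene's own strand and ends where the first annotated transcript of the gene begins. Capitals mark matches to the nuclear receptor half-site AGGTCA and to the half-site TGACG of the cAMP response element, on either strand. The P2rx7 sequence is chr5:122643677-122643926 (plus strand), that of P2rx4 is chr5:122707294-122707517 (plus strand), that of Nt5e is chr9:88327359-88327608 (plus strand), and that of Izumo1r is chr9:14903952-14904017 (minus strand).
P2rx7: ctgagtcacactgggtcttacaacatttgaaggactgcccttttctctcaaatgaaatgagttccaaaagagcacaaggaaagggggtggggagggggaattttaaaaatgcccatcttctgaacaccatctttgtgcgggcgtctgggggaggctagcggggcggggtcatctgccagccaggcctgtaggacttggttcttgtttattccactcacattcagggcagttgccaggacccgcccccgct
P2rx4: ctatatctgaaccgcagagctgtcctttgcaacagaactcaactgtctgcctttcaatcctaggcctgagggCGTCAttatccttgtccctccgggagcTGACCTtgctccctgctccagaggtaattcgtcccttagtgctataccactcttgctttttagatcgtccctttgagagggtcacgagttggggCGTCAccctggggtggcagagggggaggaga
Nt5e: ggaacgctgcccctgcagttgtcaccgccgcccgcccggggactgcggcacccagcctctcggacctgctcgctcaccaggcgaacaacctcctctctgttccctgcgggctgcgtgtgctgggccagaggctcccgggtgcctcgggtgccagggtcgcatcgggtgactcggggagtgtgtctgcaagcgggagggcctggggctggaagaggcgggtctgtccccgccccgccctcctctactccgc
Izumo1r: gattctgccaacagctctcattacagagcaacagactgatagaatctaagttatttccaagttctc

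The motif search covered the 250 bases before each start site in the table. The full palindromic estrogen response element has 2 half-sites facing each other across a 3-base gap. It was found in 0.0639% of 32851 such windows of all genes and in none of the windows of the 5 genes with an entry. Its half-site AGGTCA was found in 14% of all windows. Among the 5 genes searched it stood before P2rx4, 151 to 146 bases upstream of its listed start. That P2rx4 window ran to base 122707543, past the end of the sequence shown, so these distances are not counted from that end. The half-site also stood before a second, internal start of P2rx7, 192 to 187 bases upstream. The full cAMP response element TGACGTCA was in 1.55% of all windows and in none of these. Its half-site TGACG was in 17.8% of all windows, and it stood before P2rx4 at 2 places and before each of the 2 Entpd1 starts. Nt5e had no match to any of these motifs, and its window was 72% G and C against 53.6% for the upstream start of P2rx7.

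The depth differed strongly between the batches, with 4926347 to 11296593 counts per sample in batch 1 and 45013017 to 69844721 in batch 2. Levels are given as CPM, counts per 1000000 counts of the sample. A level of 3 counts, the limit of detection used here, corresponded to 0.266 to 0.609 CPM in batch 1 and 0.043 to 0.0666 CPM in batch 2. Esr1, the deleted gene, had 1.45 and 1.69 CPM in wildtype samples against 0.143 and 0.256 CPM in knockout samples of batch 2, but 4.87 and 16.2 CPM in wildtype samples against 6.31 to 13 CPM in knockout samples of batch 1, where it does not check the labels. Sensory receptor genes, silent in T cells, averaged 0.381 to 1.69 CPM per gene in batch 1, highest in knockout replicate 3, and 0.0171 to 0.0245 CPM in batch 2. A few libraries stood apart. Knockout replicate 3 had 30.4 CPM of Xist and 55.4 CPM of the Y-linked gene Ddx3y. The other batch 1 samples had 1745 to 2680 CPM of Xist and 0 of Ddx3y. All batch 2 samples, of both genotypes, had 0 to 0.289 CPM of Xist and 93.6 to 106.9 CPM of Ddx3y, so the batches differed in sex-linked genes. Wildtype replicate 3 had 2155 CPM of the cell division gene Mki67 against 441 to 1036 CPM in the rest of batch 2, and knockout replicate 2 was high in regulatory T cell markers, as given with Entpd1. None of the CD4 T cell markers was at 0. Their sum was 2937 and 3106 CPM in wildtype samples against 2643 to 2786 CPM in knockout samples of batch 1, and 3280 and 3517 against 3762 and 3778 CPM in batch 2, so it was lower in knockout samples of batch 1 and higher in those of batch 2.

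P2rx7, the high-threshold ATP channel, stood higher in every knockout sample than in every wildtype sample of the same batch. Batch 1 gave 56.8 and 51.2 CPM in the wildtype samples against 87.7, 93.5 and 69.2 CPM in the knockout samples. Its batch 2 levels were 74.3 and 73.1 CPM in wildtype samples against 109.8 and 122.4 CPM in knockout. The lowest knockout sample of batch 1 was replicate 3, which stood apart in that batch by its sex-linked genes. It was still 1.22-fold above the highest wildtype sample in CPM. With library totals adjusted by TMM factors the 2 samples had 60.47 and 54.54 CPM. Group means were 54 ± 4.02 CPM (SD, n = 2) against 83.5 ± 12.7 CPM (SD, n = 3) in batch 1, a 1.55-fold ratio, and 73.7 ± 0.821 CPM (SD, n = 2) against 116.1 ± 8.9 CPM (SD, n = 2) in batch 2, a 1.58-fold ratio. The ratio was 1.68 in batch 1 without knockout replicate 3 and 1.59 in batch 2 without wildtype replicate 3. In this bulk RNA, a larger share of cells that express a gene and more of its RNA per cell cannot be told apart.

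P2rx4, the channel that responds to lower ATP, showed a smaller difference at a level near 10 CPM. Its batch 1 levels were 11.6 and 9.95 CPM in wildtype samples against 14.5, 11.7 and 12.8 CPM in knockout samples. The groups barely separated there, since the lowest knockout sample was 1.01-fold the highest wildtype sample, and they overlapped once the library totals were adjusted by TMM factors (11.08 TMM-scaled CPM in that knockout sample and 11.13 in that wildtype sample). In batch 2 it had 12.7 and 12.2 CPM in wildtype samples against 15.9 CPM in each of the 2 knockout samples, a ratio of 1.28. Wildtype replicate 2, with 49 counts, gives the level only to within 7.36 to 13.1 CPM (95% exact Clopper-Pearson interval, counting error only). The knockout mean of batch 1, 13 ± 1.41 CPM (SD, n = 3), lies inside that interval, and the ratio of means there was 1.21.

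Entpd1 (CD39), which starts the breakdown of ATP, had 2 of 3 knockout samples above both wildtype samples in batch 1, and 2 of 2 in batch 2. In batch 1 it had 9.74 and 6.7 CPM in wildtype samples against 9.44, 20.8 and 10.5 CPM in knockout samples, and the groups overlapped. The high value belonged to knockout replicate 2. That sample also had the highest level in its batch for 10 of 12 regulatory T cell markers, among them Foxp3 at 280.4 CPM against 137.5 to 170.3 CPM in the other 4 samples. In batch 2 Entpd1 had 7.42 and 10.8 CPM in wildtype samples against 12.1 and 14.5 CPM in knockout samples, without overlap. The ratio of means was 1.65 in batch 1 and 1.46 in batch 2, and 1.23 in batch 2 without wildtype replicate 3. The fitted log2 difference over both batches was 0.62 ± 0.28 (SE). It was 0.39 without knockout replicate 2 and 0.38 without wildtype replicate 2. Each of these fits also repeated the filter and the scaling. The 33 counts of wildtype replicate 2 allow 4.61 to 9.41 CPM (95% exact Clopper-Pearson interval).

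Nt5e (CD73), the enzyme that yields adenosine, separated the genotypes in both batches. Batch 1 gave 26.7 and 23.3 CPM in wildtype samples against 37.1, 35.1 and 32.8 CPM in knockout samples. Batch 2 gave 38.7 and 32.5 CPM in wildtype samples against 56.3 and 65.5 CPM in knockout samples. The groups did not overlap in either batch, and in CPM the closest samples differed 1.22-fold in batch 1 and 1.45-fold in batch 2. On TMM-scaled CPM the closest samples of batch 1 were nearer, at 28.6 in knockout replicate 3 and 25.66 in wildtype replicate 1. Means were 25 ± 2.4 CPM (SD, n = 2) against 35 ± 2.19 CPM (SD, n = 3) in batch 1, and 35.6 ± 4.4 and 60.9 ± 6.52 CPM (SD, n = 2 each) in batch 2. The ratios were 1.4 and 1.71, and 1.44 without knockout replicate 3 and 1.88 without wildtype replicate 3.

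Adora2a, the receptor that completes the pathway, gave different pictures in the batches. Its batch 1 levels were 15.7 and 15.2 CPM in wildtype samples against 21.95, 22.4 and 33.9 CPM in knockout samples, a ratio of 1.69 with no overlap. The highest of these was knockout replicate 3, the sample with the most sensory receptor counts, and without it the ratio was 1.44. The groups overlapped in batch 2, with 18.5 and 24.2 CPM in wildtype samples against 19.3 and 25.7 CPM in knockout samples and a ratio of 1.055, or 0.93 without wildtype replicate 3. Whether the batches differ in this respect was not tested. The fitted log2 difference over both batches, 0.40 ± 0.19 (SE), became 0.26 without knockout replicate 3 and 0.17 without wildtype replicate 2. Wildtype replicate 2 lay close to replicate 1 in CPM, and each of these fits also repeated the filter and the scaling.

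Izumo1r, the folate receptor 4 gene, had every knockout sample above every wildtype sample of its batch, most narrowly in batch 1. In batch 1 it had 90.2 and 86.7 CPM in wildtype samples against 96.4, 124.6 and 119.7 CPM in knockout samples. The closest pair there, wildtype replicate 1 and knockout replicate 1, differed 1.07-fold in CPM and had 86.57 and 90.21 TMM-scaled CPM. In batch 2 the separation was wider, with 116.8 and 120 CPM in wildtype samples against 195.1 and 179.2 CPM in knockout samples. Means were 88.4 ± 2.49 CPM (SD, n = 2) against 113.6 ± 15.1 CPM (SD, n = 3) in batch 1, and 118.4 ± 2.29 and 187.2 ± 11.2 CPM (SD, n = 2 each) in batch 2. The ratios of 1.29 and 1.58 were 1.25 and 1.56 without knockout replicate 3 and wildtype replicate 3.

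**Figure D1:**
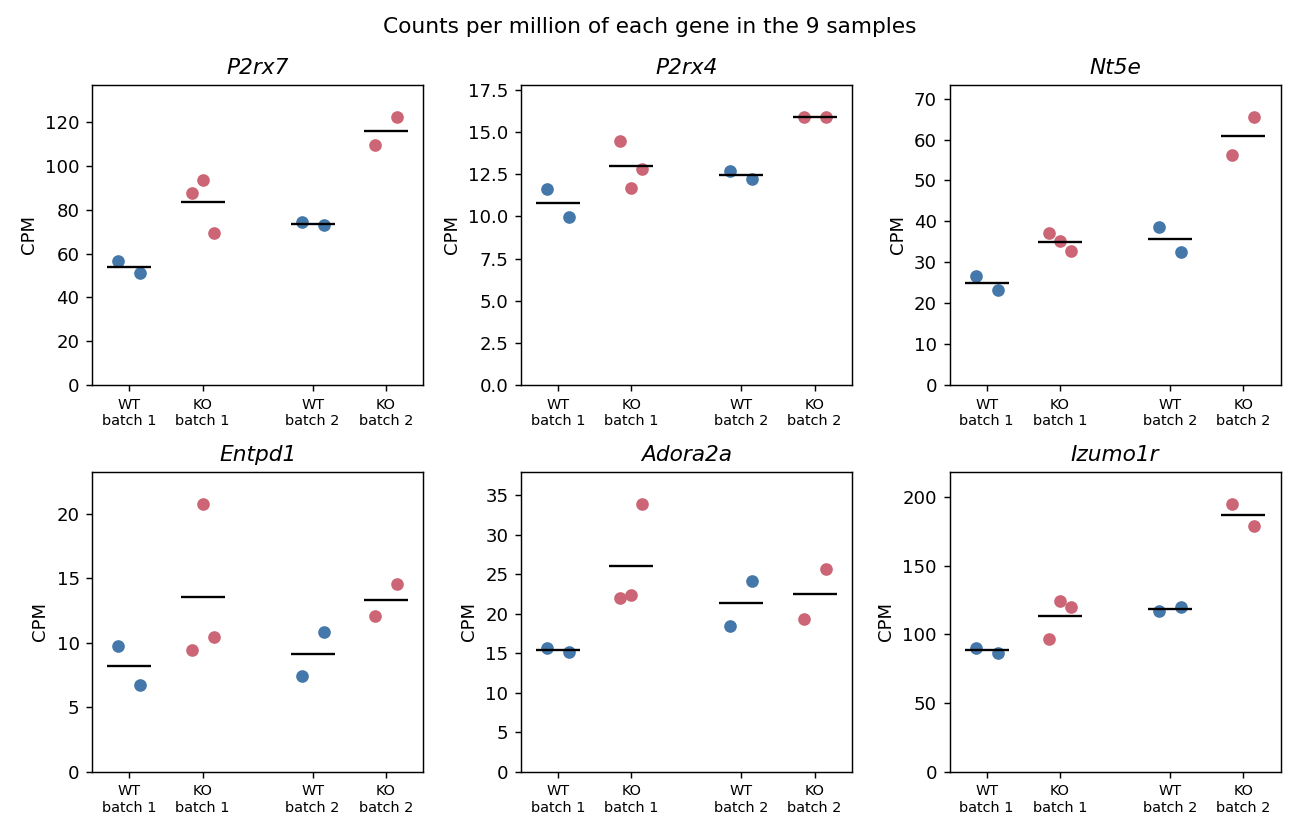
Level of each of the 6 genes in CPM (vertical axis, from 0) in the 9 samples, by genotype and batch; points are samples and bars are group means. P2rx7, P2rx4, Nt5e and Izumo1r had all knockout samples above all wildtype samples within each batch on this scale (P2rx4 not in batch 1 after TMM scaling), while Entpd1 overlapped in batch 1 and Adora2a in batch 2.

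Counted together, 5 of the 6 genes had all knockout samples above all wildtype samples in batch 1 and 5 of 6 in batch 2, where 11% and 14.2% of all tested genes did. In both batches at once this held for 4 genes, P2rx7, P2rx4, Nt5e and Izumo1r, and for 1.4% of all genes, or 2.04% of those with at least 10 CPM on average. The reverse order, with all knockout samples lower in both batches, was found for 0.761% of all genes. On TMM-scaled CPM, knockout samples lay above wildtype samples in both batches for 3 genes, without P2rx4, and for 1.15% of all genes. Without knockout replicate 2 the ratios of means in batch 1 were 1.45 for P2rx7, 1.27 for P2rx4, 1.4 for Nt5e, 1.22 for Izumo1r, 1.21 for Entpd1 and 1.81 for Adora2a. The genes were chosen with this contrast in view, so nothing is read from these values. For the same reason the model's call rate is given only as background: edgeR's quasi-likelihood test with adjusted p under 0.05 called 0.00451% of genes over both batches.

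The fitted log2 differences, knockout minus wildtype with batch in the model, were all positive. They were 0.62 ± 0.13 (SE) for P2rx7, 0.59 ± 0.13 for Nt5e, 0.47 ± 0.12 for Izumo1r and 0.28 ± 0.16 for P2rx4, beside the values of Entpd1 and Adora2a above. The median over the 6 was 0.53, against 0.01 over all genes tested, of which 51.4% were positive. Within batch 1 alone the values were 0.50 ± 0.38 for P2rx7, 0.33 ± 0.36 for Nt5e, 0.21 ± 0.37 for Izumo1r, 0.11 ± 0.41 for P2rx4, 0.57 ± 0.45 for Entpd1 and 0.56 ± 0.37 for Adora2a. The standard error exceeded the value itself for Nt5e, Izumo1r and P2rx4. Within batch 2 they were 0.66 ± 0.11 for P2rx7, 0.77 ± 0.16 for Nt5e, 0.66 ± 0.10 for Izumo1r, 0.35 ± 0.17 for P2rx4, 0.56 ± 0.25 for Entpd1 and 0.09 ± 0.21 for Adora2a. The deeper batch thus gave the narrower errors for all 6 genes.

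**Figure D2:**
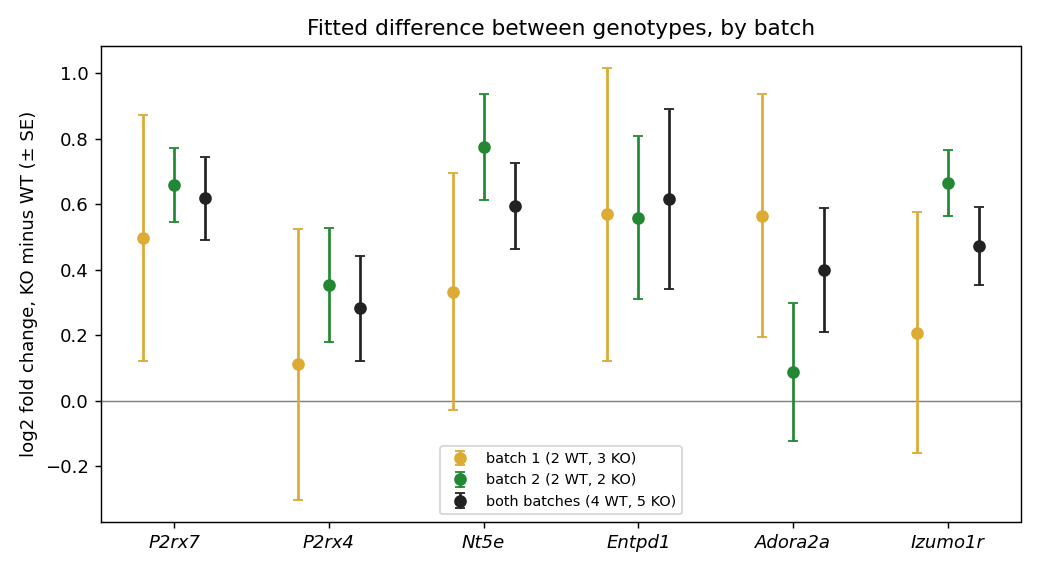
Fitted log2 difference between genotypes, knockout minus wildtype (vertical axis), for each gene in batch 1, in batch 2 and over both batches; points are edgeR estimates and bars ± 1 SE. All estimates lay above 0, the batch 1 bars were the widest, and Adora2a in batch 2 was the lowest, at 0.09.

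Levels of different genes were compared per kilobase of the longest coding transcript in GENCODE M21. Coding transcripts ran from 712 to 4936 bases for P2rx7 and from 726 to 1291 bases for Izumo1r. Which forms were present was not examined, so the order applies only with the longest form of each gene. On that scale Izumo1r was far above the rest in every group, at 67.1 to 69.9 CPM per kilobase in wildtype samples of batch 1 and 139 to 151 in knockout samples of batch 2. P2rx7 came next, at 10.4 to 11.5 and 22.2 to 24.8 CPM per kilobase in the same groups. Nt5e and Adora2a could not be ordered in 3 of the 4 groups, where their ranges overlapped (5.84 to 6.69 and 5.86 to 6.04 CPM per kilobase in wildtype samples of batch 1). In knockout samples of batch 2 Nt5e stood at 14.1 to 16.4 and Adora2a at 7.43 to 9.9 CPM per kilobase. P2rx4 lay below these in every group, from 3.68 to 5.88 CPM per kilobase over all samples. Entpd1 had the lowest mean in every group, ran from 1.59 to 4.92 CPM per kilobase, and overlapped with P2rx4 in knockout samples of batch 1.

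P2rx7, Nt5e, Izumo1r and P2rx4 also differed between the batches, a comparison that played no part in choosing them. With genotype in the model, P2rx7 was higher in batch 2 by a log2 difference of 0.68 ± 0.12 (edgeR quasi-likelihood adjusted p = 0.000667), Nt5e by 0.89 ± 0.13 (edgeR adjusted p = 0.000226), Izumo1r by 0.81 ± 0.12 (edgeR adjusted p = 0.000223) and P2rx4 by 0.47 ± 0.16 (edgeR adjusted p = 0.0219). Entpd1, at 0.26 ± 0.27, and Adora2a, at 0.32 ± 0.19, did not pass (edgeR adjusted p = 0.425 and 0.158). Of all genes tested 64.1% were called, 16.8% higher in batch 2 and 47.3% lower, with a median log2 difference of -0.76. Upper-quartile scaling moved that median to -0.97 and DESeq2 size factors to -0.83. P2rx4 lost its call with upper-quartile scaling (log2 difference 0.27, adjusted p = 0.174) and without wildtype replicate 1, knockout replicate 4 or knockout replicate 5 (adjusted p = 0.0556, 0.0764 and 0.0764). P2rx7, Nt5e and Izumo1r passed in each of these runs. Adora2a passed with no filter on low counts (adjusted p = 0.0208), without wildtype replicate 3 (adjusted p = 0.0372) and without knockout replicate 3 (adjusted p = 0.0169). The batches also differed in depth, in sensory receptor counts and in sex-linked genes, and these cannot be told apart from the batch difference of the genes.

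How the 6 genes moved together over samples was described with log2 CPM centred on the mean of each batch and genotype, which removes the difference that chose them. Over the 9 samples P2rx7 and Nt5e then had a Pearson r of 0.62, P2rx7 and Entpd1 0.58, P2rx7 and Izumo1r -0.20, and Nt5e and Izumo1r -0.44. P2rx4 and Izumo1r had -0.66 and P2rx7 and Adora2a -0.55, so the 6 genes did not all vary in 1 direction. Entpd1 had an r of 0.80 with Foxp3, the factor that defines regulatory T cells, whereas P2rx7 had 0.54, Izumo1r 0.42, Adora2a -0.14, Nt5e -0.16 and P2rx4 -0.75. Knockout replicate 2 had the highest Entpd1 and Foxp3 of batch 1. The r of 0.80 leans on that library, and r on this scale was not computed without it. These points share libraries, depth and scaling, only 5 deviations of the 9 are free after centring, and no p is given. When only the batch mean was removed, r was 0.94 for P2rx7 with Nt5e and 0.81 for P2rx7 with Izumo1r, values that contain the genotype difference.

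The genes most like each of the 6 were found on the batch-centred scale among 7433 or 7434 genes with at least 10 CPM in every sample. For P2rx7 these were Elp3, Mbp and Nt5e itself (Pearson r of 0.948, 0.941 and 0.939 over 9 samples), and for Nt5e they were Ntrk3, Ppil3 and P2rx7 (0.975, 0.949 and 0.939). P2rx7 and Nt5e were therefore each among the 3 nearest genes of the other. Izumo1r was nearest to Ears2, Smad1 and Ocrl (0.949, 0.934 and 0.933) and P2rx4 to Tent5a, Igf1r and Thap7 (0.976, 0.956 and 0.954). Entpd1 was nearest to Psmb8, Supt5 and Zfp319 (0.970, 0.958 and 0.956) and Adora2a to Parp11, Tpcn2 and Recql5 (0.977, 0.975 and 0.971). They share the 9 libraries and the genotype difference, and are given as a description.

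The rest of the pathway was examined through 8 lists of purinergic genes, of which 76 could be tested for knockout against wildtype, along with lists for folate transport, regulatory T cells and anergy. Of the 107 genes tested over all 11 lists, edgeR called 0 (smallest adjusted p = 0.9996) and DESeq2 called 0, and 3 had an unadjusted p under 0.05, where 2.36% of all genes did. Their median log2 difference was 0.01, with 55 positive and 52 negative. For comparison, 51.4% of all genes tested were positive.

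Of those 3 genes, Art2b had a positive difference. It encodes an enzyme on the T cell surface that uses NAD to attach ADP-ribose to P2RX7 and thereby opens the channel without ATP. It had 51.6 and 40.6 CPM in wildtype samples against 74.1, 70.6 and 39.9 CPM in knockout samples of batch 1. Knockout replicate 3 was the lowest sample there, so the groups overlapped. Its batch 2 levels were 98.5 and 74.8 CPM in wildtype samples against 186.7 and 180 CPM in knockout samples, with no overlap. The log2 difference was 0.70 ± 0.22 over both batches, 0.30 ± 0.38 in batch 1 and 1.08 ± 0.18 in batch 2. Its unadjusted p of 0.0089 over both batches did not survive adjustment over all genes. After centring on batch and genotype, Art2b had an r of 0.86 with P2rx7 and -0.85 with Adora2a over the 9 samples. Knockout replicate 3 was the lowest knockout sample of batch 1 for Art2b and P2rx7 and the highest for Adora2a. Both values lean on that library, and r on this scale was not computed without it. Its near-identical relative Art2a, at 1.08 to 1.42 CPM on average in a batch, may share reads with it.

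Entpd4, an enzyme of the CD39 family that acts inside the cell, was the other ectoenzyme-list gene with an unadjusted p under 0.05 (0.00839). It had 52.1 and 56.2 CPM in wildtype samples against 30.5, 26.1 and 38.1 CPM in knockout samples of batch 1, and 48.5 and 55.7 against 45.9 and 50 CPM in batch 2. Its log2 difference was -0.50 ± 0.16 over both batches and it did not pass adjustment. Reads shared with its near-copy Entpd4b make its level uncertain. The other named members of that list, Entpd5, Entpd6, Entpd7 and Enpp1, had log2 differences of -0.03, 0.13, -0.06 and 0.02. Cd38, which degrades NAD outside the cell, averaged 7.9 CPM in batch 1 and 10.3 CPM in batch 2.

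The other ATP receptors were close to silent. P2rx1, P2rx2, P2rx3, P2rx5 and P2rx6 averaged 1.49 to 5.45 CPM in batch 1 and 0 to 0.167 CPM in batch 2, a drop also seen in the sensory receptor genes. P2ry10, a lysophospholipid-type receptor of T cells named with the P2Y family, was the P2Y gene that reached 10 CPM in each batch, and its log2 difference was -0.07 ± 0.21. It shares sequence with P2ry10b, so the division of reads between them is uncertain. The adenosine receptors other than Adora2a were also scarce in batch 2, with Adora1 at 0.0722, Adora2b at 0.101 and Adora3 at 0.13 CPM on average. Adora2a was thus the only adenosine receptor gene above 1 CPM there.

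For ATP release, adenosine clearance and signalling downstream no gene passed over both batches, and some values averaged opposite signs in the 2 batches. Panx1, a channel that releases ATP, had a log2 difference of 0.19 ± 0.12, Slc17a9, which loads ATP into vesicles, 0.01 ± 0.17 (-0.39 in batch 1 and 0.31 in batch 2), and Lrrc8a, a volume-regulated channel, -0.10 ± 0.12. Among clearance genes, Adk, Dpp4, Pnp, Ahcy, Slc29a1, Slc29a3 and Slc28a2 ranged from -0.33 for Pnp, which splits purine nucleosides, to 0.17 for Slc28a2, a nucleoside transporter. Pnp had 0.22 in batch 1 and -1.03 in batch 2, and Dpp4 -0.45 and 0.28. The 12 cAMP genes Gnas, Adcy3, Adcy7, Prkaca, Prkacb, Prkar1a, Creb1, Crem, Pde3b, Pde4b, Pde4d and Pde7a ranged from -0.28 for the cAMP phosphodiesterase Pde4b to 0.22 for the adenylyl cyclase Adcy3. The phosphodiesterase Pde3b among them had -0.53 in batch 1 and 0.45 in batch 2. Adcy9, another adenylyl cyclase, averaged 4.41 CPM in batch 2, below the level for naming, and is given after its values were seen. It had 0.55 ± 0.26 over both batches, 0.60 in batch 1 and 0.39 in batch 2. The genes through which P2RX7 acts, Pycard, Casp1, Gsdmd, Ano6, Adam10, Adam17 and Cd27 among them, ranged from -0.25 for Pycard to 0.16 for Casp1. For folate, the carrier Slc19a1 had 0.16 ± 0.18, while the receptor genes Folr1 and Folr2 averaged 0.0358 and 0 CPM in batch 2.

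**Figure D3:**
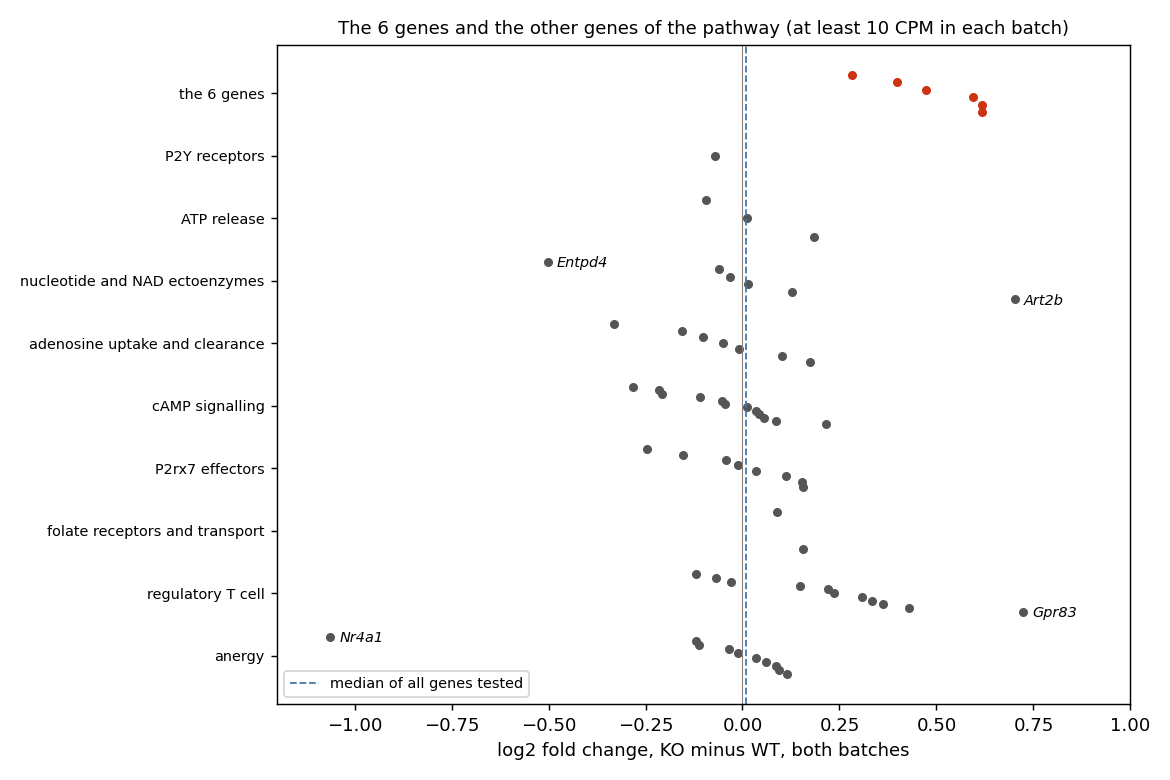
Log2 difference, knockout minus wildtype over both batches (horizontal axis), for the 6 genes (top row, red) and for the 60 other pathway genes with at least 10 CPM on average in each batch (grey points, 1 row per list); the dashed line is the median of all genes tested, 0.01. The 6 genes lay between 0.28 and 0.62, and Art2b and Gpr83 lay above them at 0.70 and 0.72.

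Regulatory T cell genes are given beside the 6 because Izumo1r, Nt5e and Entpd1 are also carried by that subset. Of 12 genes, 9 had a positive and 3 a negative log2 difference, with a median of 0.23, and 0 passed (0 also with DESeq2 and 0 at an unadjusted p under 0.05). Foxp3 had 137.5 and 170.3 CPM in wildtype samples against 148.7, 280.4 and 141.6 CPM in knockout samples of batch 1, which overlapped. In batch 2 it had 216.7 and 290.2 CPM in wildtype samples against 294 and 348.8 CPM in knockout samples, where the closest samples differed 1.01-fold. The log2 difference of Foxp3 was 0.31 ± 0.21, against 0.43 ± 0.34 for Ikzf2, 0.36 ± 0.17 for Ikzf4, 0.34 ± 0.20 for Tnfrsf4, 0.24 ± 0.23 for Ctla4, 0.22 ± 0.19 for Lrrc32, 0.15 ± 0.15 for Tnfrsf18, -0.03 ± 0.29 for Capg, -0.07 ± 0.15 for Nrp1 and -0.12 ± 0.18 for Il2ra. Gpr83, a receptor found on regulatory T cells, had 0.72 ± 0.33. The 12 markers summed to 584 to 695 CPM in wildtype samples against 631 to 1037 CPM in knockout samples of batch 1, and to 865 to 1172 and 1070 to 1180 CPM in batch 2, so both ranges overlapped, and the part of regulatory T cells in the values of the 6 genes was not tested.

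The anergy list held 13 tested genes, 8 positive and 5 negative with a median log2 difference of 0.06, and 0 passed in edgeR or DESeq2, with 1 at an unadjusted p under 0.05. That gene was Nr4a1, a factor induced by T cell receptor signals, at -1.06 ± 0.28. It was lower in each knockout sample than in each wildtype sample of its batch, as were 0.761% of all genes in both batches. Among the 113 pathway genes 1 was lower in both batches in this way and 1 was higher. Nr4a1 had 454.7 and 418.2 CPM in wildtype samples against 279.1, 361.4 and 203.8 CPM in knockout samples of batch 1. In batch 2 it had 387.4 and 178.1 against 108.7 and 90.4 CPM. Cblb, Egr2, Egr3, Itch, Dgka, Dgkz, Tox, Cd200 and Ndrg1 lay between -0.12 and 0.12. Cd4 stood at 925 to 1321 CPM in all samples.

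Within batch 2 no gene of 15910 passed in edgeR (0% called), although 7.77% had an unadjusted p under 0.05. By DESeq2 329 passed. Among the 92 pathway genes tested there, 10 positive and 3 negative had an unadjusted p under 0.05, and DESeq2 called 4 of them. These 4, named after their values were seen, were Art2b, Gpr83 and Lrrc32, which were higher in the knockout, and Nr4a1, which was lower. Within batch 1 edgeR called 0 of 110 pathway genes, with 0.126% of all genes called. Of these 110 genes 3 had an unadjusted p under 0.05, where 1.97% of all genes tested in batch 1 did. DESeq2 called 0 pathway genes in that batch.

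RNA of other cells was present in all libraries, and some of its markers split by genotype within a batch. B cell markers summed to 43.6 to 60 CPM in wildtype samples against 38.9 to 80.2 CPM in knockout samples of batch 1, and to 7.78 to 12.6 and 10.1 to 13.2 CPM in batch 2. Monocyte and macrophage markers summed to 84.2 to 144.4 and 153.5 to 206.2 CPM in batch 1 and to 83.5 to 116.6 and 60.8 to 61.1 CPM in batch 2, so they were higher in knockout samples of one batch and lower in the other. Neutrophil markers summed to 294.5 and 834.7 CPM in wildtype samples against 632.5 to 1015 CPM in knockout samples of batch 1, which overlapped. In batch 2 they did not overlap, with 22.7 and 189.3 CPM in wildtype samples against 5.15 and 8.28 CPM in knockout samples. All 6 neutrophil genes had a negative log2 difference there, with a median of -3.84, and 3 had an unadjusted p under 0.05. Erythroid markers reached 878.2 CPM in wildtype replicate 3 alone. The other wildtype sample of batch 2 had 33.2 CPM, below the 41.3 and 47.1 CPM of the knockout samples, and batch 1 ran from 2.44 to 19.1 CPM. Markers of dendritic cells summed to 12.8 and 26.8 CPM in wildtype samples against 24.2 to 40.6 CPM in knockout samples of batch 1. In batch 2 they too split by genotype, with 5.94 and 9.49 CPM in wildtype samples against 2.61 and 3.81 CPM in knockout samples, and up to 4 of 6 were at 0. The sum of the 2 CD8 T cell markers was lower in each knockout sample than in each wildtype sample of its batch, in both batches. It was 14.96 and 18.88 CPM in wildtype samples against 9.71 to 12.82 CPM in knockout samples of batch 1. In batch 2 it was 11.17 and 11.46 against 10.58 and 10.86 CPM. Most of the sum was Cd8b1, with means of 14.1 against 7.68 CPM in batch 1 and 11.2 against 10.7 CPM in batch 2. Cd8a averaged 2.8 CPM in wildtype against 3.85 CPM in knockout samples of batch 1, the opposite order. In batch 2 its means were 0.0788 and 0 CPM, so the sum is not read as a share of CD8 T cells. Over both batches 1 of these 2 genes was lower at an unadjusted edgeR p under 0.05, and 0 passed adjustment. Markers of NK cells summed to 3.7 to 10.9 CPM and of platelets to 1.67 to 11.2 CPM. The part of these cells in the levels of the 6 genes was not tested.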

How the data were processed

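RNA-seq of CD4+ T cells from 9 mouse samples was analysed. The authors deposited 1 table of estimated counts per gene, with fractional values. Per the submitters' processing notes, Salmon 1.2.0, R 4.0.3 and the GRCm39 genome build were used, without stated roles, and any length scaling of the counts is not given in the sources used here. Values were rounded to whole numbers. Levels are counts per 1000000. Differences were fitted with edgeR 4.0.16 in R 4.3.3 (TMM factors, quasi-likelihood test, genotype and batch as terms, genes with at least 10 counts by edgeR's filter and 15 in total, Benjamini-Hochberg threshold 0.05), within each batch too, and the procedure was tested on simulated data. DESeq2 1.42.0, other scaling, no filter, a replicate block and leaving out each sample were alternatives, and leaving out wildtype and knockout replicate 3 together was chosen after seeing the data. The members and lists were chosen with earlier results of these data known. Named pathway genes are those with at least 10 CPM on average in each batch, and the 3 genes with the highest Pearson r are named beside each of the 6. Genes below that level are named as scarce. Sequences and positions come from RefSeq's GRCm38.p6, which is not the build of the files, so no coordinate was taken from one to the other. With nothing in the labels on separate animals, p-values measure only the spread between these samples. Labels share replicate numbers. Deviations of same-numbered samples from their group means had correlations of 0.354, -0.384, -0.0741 and -0.0608 for numbers 1 to 4. In a group of 2 samples the deviations mirror each other, and number 3 joins samples of different batches. These values therefore cannot show whether the numbers pair samples. A few listed genes are not reported here by name.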

Additional observations from a re-analysis of the deposited data

How the results depend on the processing

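The log2 difference between genotypes stayed positive for all 6 genes under the 15 alternatives run for each. Leaving out 1 sample at a time gave 0.46 to 0.67 for P2rx7, 0.11 to 0.34 for P2rx4, 0.45 to 0.67 for Nt5e, 0.38 to 0.72 for Entpd1, 0.17 to 0.54 for Adora2a and 0.35 to 0.52 for Izumo1r, each lowest without wildtype replicate 2. Without a filter P2rx4 had 0.18. With wildtype and knockout replicate 3 both left out, a choice made after seeing the data like the ratios without single libraries, Adora2a had 0.21. The replicate number as a block, where number 3 joins samples of different batches, called 1 gene. It gave 0.69 for P2rx7, 0.32 for P2rx4, 0.62 for Nt5e, 0.55 for Entpd1, 0.22 for Adora2a and 0.44 for Izumo1r. Over all genes, the count for knockout against wildtype was 1, and it was 16 with DESeq2, 2 with no filter, 0 without the batch term and 0 to 3 without single samples. In batch 1 it was 31, with 6 by upper-quartile scaling, 68 with no filter and 33 to 118 without single samples. In batch 2 it was 0 (1237 at an unadjusted p under 0.05), with 329 by DESeq2, 34 with no filter and 0 to 879 without single samples. For batch 2 against batch 1 it was 14221, with 25837 with no filter and 11456 to 18656 without single samples. Causes were not tested. Pathway genes gave 0 calls over both batches under every setting. The fewest counts behind a value of the 6 genes were the 33 of Entpd1 in wildtype replicate 2.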
